A study of Mus musculus with 4 samples.

Results

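The CCN family members Ccn1, Ccn2, Ccn3, Ccn4 and Ccn5 were followed through the cell types of the mouse fetal hindlimb and through its response to p21 expression in cartilage. Members were taken by gene symbol, and all 5 were present among the 32288 features of the deposited tables. Across 2767 cells with a known condition, Ccn1 gave 23385 unique molecular identifiers (UMIs, each standing for 1 captured RNA molecule), Ccn2 gave 3590, Ccn4 gave 2311, Ccn3 gave 367 and Ccn5 gave 19. Ccn5 was therefore at the edge of detection and under the count filter of every edgeR comparison reported here.

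CCN proteins are secreted matricellular proteins: they sit in the extracellular matrix, bind integrins, LRP receptors, proteoglycans and growth factors, and change how a cell reads its surroundings. Ccn1 and Ccn2 are well known as rapidly induced targets of YAP and TAZ acting through TEAD factors, of serum response factor and of TGF beta, and Ccn2 is needed for normal growth of the cartilage template. Ccn3 has been described as an antagonist of Ccn2 in cartilage, Ccn4 as a Wnt-inducible member of skeletal mesenchyme, and Ccn5 as the member that lacks the C-terminal module of the family.

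Hindlimb cells (the labels name femur and tibia, the methods the whole hindlimb) were collected at E14.5 and sorted into tdT+ cells, the Gli1 lineage labelled by tdTomato, and tdT- cells. All embryos carried Gli1CreER/+, R26LSL-tdTom/+ and TigreTRE-p21/+ and all were exposed to doxycycline and tamoxifen. Pan-Cart-p21MOE embryos (p21 cells below) also carried Col2a1-rtTA, a transgene that switches on p21 in a mosaic of cartilage cells, and control embryos lacked it. The 4 libraries each mixed p21 cells of one sex with control cells of the other: libraries 1 (tdT+) and 2 (tdT-) held male p21 and female control cells, and libraries 3 (tdT+) and 4 (tdT-) the reverse. Condition was read from sex-linked transcripts and is crossed with sex over the collections, and each library gave 1 p21 and 1 control value, 8 in all. These 8 values come from 2 embryo pools per condition, each split into tdT+ and tdT- cells, so their p-values measure the spread between these samples. The methods list a single female p21 embryo where the results describe pools.

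The 8 sums of chondrocytes held 783846 to 7881948 UMIs and the 8 sums of all other cells 1509651 to 11550772. Between 3 and 12 cell barcodes were shared by any pair of libraries. In library 4, 2747 of 3912 cells that passed quality filters had too few sex-linked UMIs for a call and were left out, against 178 of 706 in library 1. The summed level of 12 chondrocyte markers was 21492 to 24803 CPM (a gene's UMIs scaled to a fixed total per sum) in the chondrocyte class (941 cells) and 4529 to 6615 in the other 1826 cells. The other cells were not free of cartilage: 358 of them (251 of 1211 p21 and 107 of 615 control cells) were in 5 unnamed clusters, numbers 5, 13, 17, 19 and 20, whose chondrocyte marker scores of 0.406 to 0.965 reached the naming limit of 0.4.

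The transgene was checked first. WPRE, an RNA-stabilising element of both the p21 and the tdTomato transgene, stood in chondrocytes at 1227, 1091, 1781 and 1334 CPM in p21 cells of libraries 1 to 4 and at 681, 118, 473 and 70.3 in control cells. It was higher in p21 cells in 4 of 4 libraries and the ranges did not overlap (log2 fold change 2.50, edgeR adjusted p = 0.0242). Control tdT+ cells also carried the element, so it does not mark p21 alone. Cdkn1a, the gene for p21, was at 52.6, 65.6, 61.8 and 62.8 in p21 chondrocytes against 23.4, 51.3, 54.1 and 92.9 in control chondrocytes. Its ranges overlapped, it was lower in p21 cells of library 4, and it did not pass the test (0.18, adjusted p = 0.879). That test left out the unnamed cluster 17, whose leading gene was Cdkn1a and which scored as cartilage (0.593). All of its 34 cells were p21 cells, 33 of them of library 4, and they were counted among the other cells. The paper states that this assay reads RNA near its 3′ end, and that reads of both transgenes fell mostly on WPRE. RNA of the p21 transgene need therefore not be counted under Cdkn1a, and the Cdkn1a level does not show whether the transgene was on. All tested values are CPM scaled by the TMM method of edgeR, and a fold change passed where edgeR's adjusted p over all genes was under 0.05.

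On the mouse genome (GRCm38, GENCODE M21) the members are spread over 4 chromosomes, each with 5 exons. Ccn1 lies at chr3:145646976-145649981 on the minus strand, Ccn2 at chr10:24595442-24598683 on the plus strand and Ccn5 at chr2:163820861-163833146 on the plus strand. Ccn3 (chr15:54745702-54754039) and Ccn4 (chr15:66891320-66923201) share a chromosome and the plus strand. The coding sequence of Ccn5 has 251 codons, against 348 for Ccn2, 354 for Ccn3, 367 for Ccn4 and 379 for Ccn1.

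The RefSeq promoter table used here held 1 of the 5 members, Ccn1, the member with the most UMIs and a classic TEAD target. Its 250 bases upstream of the start (GRCm38.p6, chr3:145649986-145650235, minus strand) are shown because the TEAD pathway genes were counted below. Capitals mark a TEAD motif (GGAATG, printed here on its reverse strand as CATTCC, 103 to 98 bases before the start), a CRE half-site (TGACGT, printed as ACGTCA, 59 to 54 bases before) and a TATA box (TATAAA, 25 to 20 bases before).
Ccn1 promoter: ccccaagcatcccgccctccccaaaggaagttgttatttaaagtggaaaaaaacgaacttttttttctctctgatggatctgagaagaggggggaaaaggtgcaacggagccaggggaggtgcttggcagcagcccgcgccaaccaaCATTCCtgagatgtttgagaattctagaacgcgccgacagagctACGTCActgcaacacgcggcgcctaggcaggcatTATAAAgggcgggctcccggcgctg
On either strand, the TEAD letters were in 12.6% of 32851 promoters of the same length, the CRE letters in 6.47% and the TATA letters in 12.4%. The AP-1 letters TGANTCA, in 6.75% of promoters, and the CArG box, in 1.47%, were not in this window.

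Levels were ranked over the 13 cell types or numbered clusters with at least 10 cells in at least 2 libraries. For this ranking the p21 and control cells of a library were summed together. Ccn1 had its highest means in cartilage. Its mean over libraries, in CPM without TMM scaling, was 530.5 ± 194 (SD, n = 3 libraries) in prehypertrophic chondrocyte-like cells, 530.1 ± 145 (n = 4) in proliferative chondrocyte-like cells and 489 ± 203 (n = 4) in resting chondrocyte-like cells. These 3 types were not separated beyond their spread. Their ranges also overlapped those of interzone or articular-like cells (260.2 to 558) and of tenocyte-like cells (281 to 373). Interzone or articular-like cells (366 ± 141) and tenocyte-like cells (321 ± 47.3) came next among the named types, followed by osteoprogenitor-like cells of cluster 2 (201 ± 82.9). Muscle-like (156 ± 11.4), connective tissue fibroblast-like (123 ± 38.9) and osteoprogenitor-like cells of cluster 15 (87.0 ± 4.14, n = 2) closed the order, and the last of these lay apart from the fibroblast-like cells. Barcodes under 1000 UMIs, which hold free RNA and broken cells, had 261 CPM of Ccn1 (221 to 318 over libraries), more than the mean of any type or cluster below the tenocyte-like cells in this order. With each cell thinned to 3000 UMIs, 55.3% of proliferative chondrocyte-like cells had a Ccn1 UMI (exact binomial interval 51.1 to 59.3%, 85.7% before thinning, median depth 26417 UMIs) against 51.7% of 29 immune-like cells (32.5 to 70.6%, 82.8% before thinning, median depth 12478 UMIs). A share of cells with a Ccn1 UMI therefore did not set cartilage apart from immune-like cells at this depth.

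Among the ranked types Ccn2 had its highest mean in prehypertrophic chondrocyte-like cells, at 183 ± 113 CPM (n = 3 libraries), where the 3 libraries were at 234, 53.8 and 261. Cluster 20, 12 cells of library 4 alone and so not ranked, had a higher value, 329 CPM from 69 UMIs. All of its 12 cells were p21 cells. They scored as cartilage (0.965) but had no name, so they were counted among the other cells and not among the chondrocytes. Next in the ranking came the unnamed cluster 5 (84.6 ± 35.7), then proliferative chondrocyte-like cells (78.3 ± 29.4), osteoprogenitor-like cells of cluster 15 (77.9 ± 14.2, n = 2) and resting chondrocyte-like cells (67.3 ± 16.6). The ranges of these 5 overlapped from each to the next, and the resting cells lay apart from the type below them, osteoprogenitor-like cells of cluster 2 (36.8 ± 4.87). The order differed by condition. In control cells the means were 329.8 in prehypertrophic, 123 in proliferative and 107 in resting chondrocyte-like cells and 87.7 in cluster 5. In p21 cells they were 101, 40.4, 36.2 and 55.8. Cluster 15 had too few control cells for this. The remaining types ran down to connective tissue fibroblast-like cells (4.54 to 29.6 over 4 libraries) and muscle-like cells (4.87 ± 3.19, n = 2). After thinning, 31.0% of prehypertrophic chondrocyte-like cells (21.5 to 41.9%, 64.5% unthinned), 15.1% of proliferative chondrocyte-like cells (12.3 to 18.2%, 48.1% unthinned) and 0 of 51 muscle-like cells (a limit of 5.88% on cells with a UMI at that depth; 15.4% unthinned, median depth 21373 UMIs) had a Ccn2 UMI. Low-UMI barcodes had 40.7 CPM of Ccn2 (29.4 to 66.8 over libraries). The leading genes of the prehypertrophic-like cluster were Col10a1, Spp1, Panx3, Cdh5 and Ihh, and Cdh5 is known as an endothelial gene. At a clustering resolution of 1.5 a separate endothelial-like cluster of 12 cells appeared, 11 of library 4 and 1 of library 2. The prehypertrophic-like cluster then held 82 cells in place of 93. The levels given for this cluster may thus include endothelial cells, and their part was not tested.

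Ccn4 had another order, with tenocyte-like and connective tissue fibroblast-like cells above resting and proliferative cartilage. Tenocyte-like cells were highest at 70.5 ± 6.13 CPM (n = 3 libraries), and connective tissue fibroblast-like cells were at 50.6 ± 10.9 (n = 4), with overlapping ranges down the order as far as resting chondrocyte-like cells (24.5 ± 5.10). Resting cells lay apart from muscle-like cells (16.1 ± 0.674, n = 2) and from proliferative chondrocyte-like cells (12.8 ± 1.63), the lowest of the order, while the unnamed cluster 9 (14.7 ± 5.09) overlapped with both resting and proliferative cells. Within cartilage, Ccn4 thus had prehypertrophic chondrocyte-like cells (42.6 ± 4.15) above resting and proliferative ones, with no overlap between the libraries of these 3 types. After thinning, 15.7% of tenocyte-like cells had a Ccn4 UMI (9.97 to 23.0%, 66.4% unthinned), against 3.90% of proliferative chondrocyte-like cells (2.49 to 5.79%, 21.6% unthinned) and 11.8% of muscle-like cells (4.44 to 23.9%, 32.7% unthinned). The muscle-like interval covers most of the tenocyte-like one, so the shares of those types were not separable at this depth.

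Ccn3 was sparse. Its highest mean was in connective tissue fibroblast-like cells, 10.0 ± 5.75 CPM (n = 4 libraries), and interzone or articular-like cells (8.08 ± 6.01) and resting chondrocyte-like cells (6.03 ± 4.71) overlapped with them. Muscle-like cells had 0 Ccn3 UMIs in 52 cells, and 0 of the 51 that could be thinned allows a share with a UMI of up to 5.88% at that depth, which does not limit the share expressing the gene. Low-UMI barcodes had 4.35 CPM of Ccn3, within the range of the types. Ccn5 had 8 UMIs in proliferative chondrocyte-like cells, 5 in connective tissue fibroblast-like cells and 2 in resting chondrocyte-like cells, and its order across types was not readable from 19 UMIs.

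**Figure D1:**
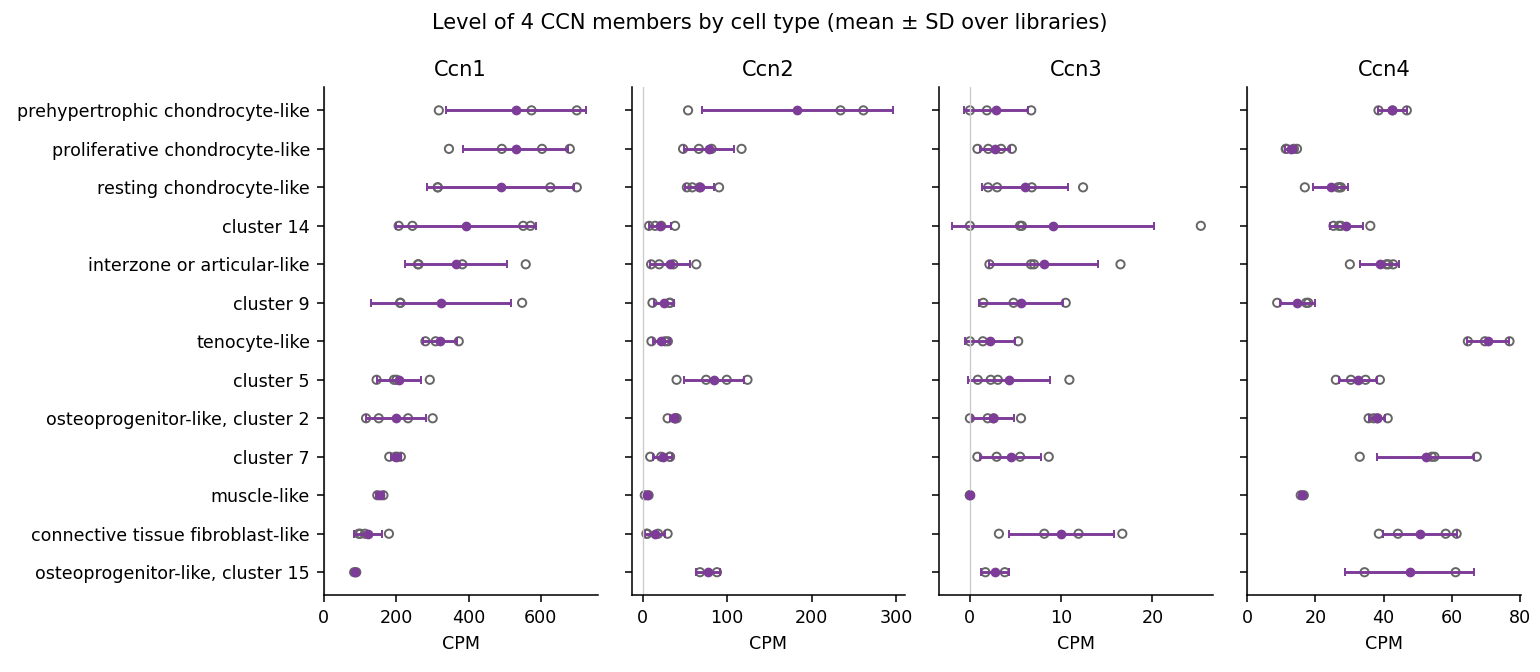
Levels of Ccn1, Ccn2, Ccn3 and Ccn4 (CPM, horizontal axes) in 13 cell types or numbered clusters, with open circles for libraries of at least 10 cells and filled points with bars for the mean ± SD over libraries. Each library holds its p21 and control cells together. The highest mean of Ccn2 is in prehypertrophic chondrocyte-like cells (183), that of Ccn4 in tenocyte-like cells (70.5) and that of Ccn3 in connective tissue fibroblast-like cells (10.0), while Ccn1 does not separate prehypertrophic from proliferative chondrocyte-like cells (530.5 and 530.1).

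The members did not share 1 pattern across the 13 types. The log2 level of Ccn1 correlated with that of Ccn2 at r = 0.372 and with that of Ccn4 at r = -0.33, and Ccn2 with Ccn4 at r = 0.089. Among 9465 genes, the pattern of Ccn2 was most like those of Lman1 (r = 0.961), Tmx1 (0.94), H6pd (0.939), Cpe (0.921) and Ckap4 (0.921), and that of Ccn1 most like those of Loxl3 (0.905), Slc38a2 (0.904), Slc1a5 (0.897), Slc2a1 (0.896) and Sfr1 (0.894). Ccn4 was closest to Ublcp1 (0.855), Actr1b (0.855), Tmx2 (0.835), Tnfaip1 (0.834) and Grm7 (0.802). The nearest genes of Ccn3 (Prxl2c, Tpra1, Cnpy4, Mboat7 and Mageh1, r = 0.871 to 0.862) and of Ccn5 (Galnt16, Dcn, Negr1, Wdhd1 and Tbce, r = 0.785 to 0.732) rest on few UMIs. The 13 types share libraries, depth and free RNA, and these correlations are descriptions.

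The next comparison asked whether members other than Ccn2 change when p21 is expressed in cartilage. In chondrocytes, of the 4 members with enough counts, Ccn2 fell and Ccn1, Ccn3 and Ccn4 did not pass the test. Over all genes, 75 of 11975 passed (0.626%), 58 of them lower in p21 cells (0.484%). This count rested on single sums: it was 3 without p21 cells of library 3, 4 without p21 cells of library 4, 17 without control cells of library 1 and 31 to 58 without any other sum, and Ccn2 passed each time.

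Ccn2 stood at 40.4, 61.8, 35.1 and 51.3 CPM in p21 chondrocytes of libraries 1 to 4 and at 114, 134, 98.2 and 190.5 in control chondrocytes. Every p21 value was under every control value, as for 3.59% of all genes in that direction. The log2 fold change was -1.54 (SE 0.138, 95% interval -1.84 to -1.24, edgeR adjusted p = 0.00111), the lowest p of the genes tested, and the exact permutation test over the 8 values gave p = 0.0286, the smallest that 70 assignments allow. That test and the edgeR fits of p21 against control treat the tdT+ and tdT- values of an embryo pool as independent. These values come from the same embryos, and the reported fits had no term for the pool. Exchanging whole pools, 2 per condition, gives 6 assignments, and no p under 0.333 in a two-sided exact test. Summed counts cannot tell fewer cells with the transcript from less RNA per cell: 41.2% of p21 and 59.8% of control chondrocytes had a Ccn2 UMI, unthinned. Low-UMI barcodes held 43.8, 66.8, 29.4 and 39.0 CPM of Ccn2 in libraries 1 to 4, near the values of p21 chondrocytes. Counts were not corrected for free RNA, and its part in these values was not tested. Without the prehypertrophic-like cluster, where Ccn2 was highest, its log2 fold change was -1.67 (adjusted p = 3.8e-05). With the 5 unnamed clusters that scored as cartilage added to the chondrocytes it was -1.26 (edgeR adjusted p = 0.00878), still lower in each library but with overlapping ranges, 35.2 to 87.7 in p21 and 81.4 to 188 in control cells. Both alternatives were chosen after seeing the data.

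Ccn1, which shares the YAP and TAZ input of Ccn2, stood at 549, 617, 318 and 496 in p21 chondrocytes and at 639, 544, 410 and 933 in control chondrocytes. The ranges overlapped, and p21 cells were lower in 3 of 4 libraries, all but library 2. Its log2 fold change was -0.35 (95% interval -0.79 to 0.09, adjusted p = 0.585; exact permutation p = 0.343), so a fall of the size seen for Ccn2 lies outside the interval of Ccn1.

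Ccn3 stood at 4.43, 1.26, 2.41 and 2.15 in p21 chondrocytes and at 7.24, 1.42, 6.55 and 4.10 in control chondrocytes, from 40 and 42 UMIs. It was lower in p21 cells of each library, with overlapping ranges. Its log2 fold change was -0.85 (95% interval -1.77 to 0.07, edgeR adjusted p = 0.51), an interval wide enough to hold both no difference and the fall of Ccn2.

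Ccn4 did not pass in chondrocytes and had the smallest estimate. It stood at 16.6, 18.92, 17.05 and 17.86 in p21 chondrocytes and at 14.48, 16.28, 24.4 and 17.29 in control chondrocytes, a log2 fold change of -0.04 (95% interval -0.46 to 0.38, adjusted p = 0.991). The value of library 3 control cells set its sign: without it the log2 fold change was 0.15. Ccn5 had 7 UMIs in p21 and 3 in control chondrocytes, 0.432 (0.174 to 0.890) and 0.305 (0.0628 to 0.891) CPM with exact Poisson intervals, which cover counting error only.

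**Figure D2:**
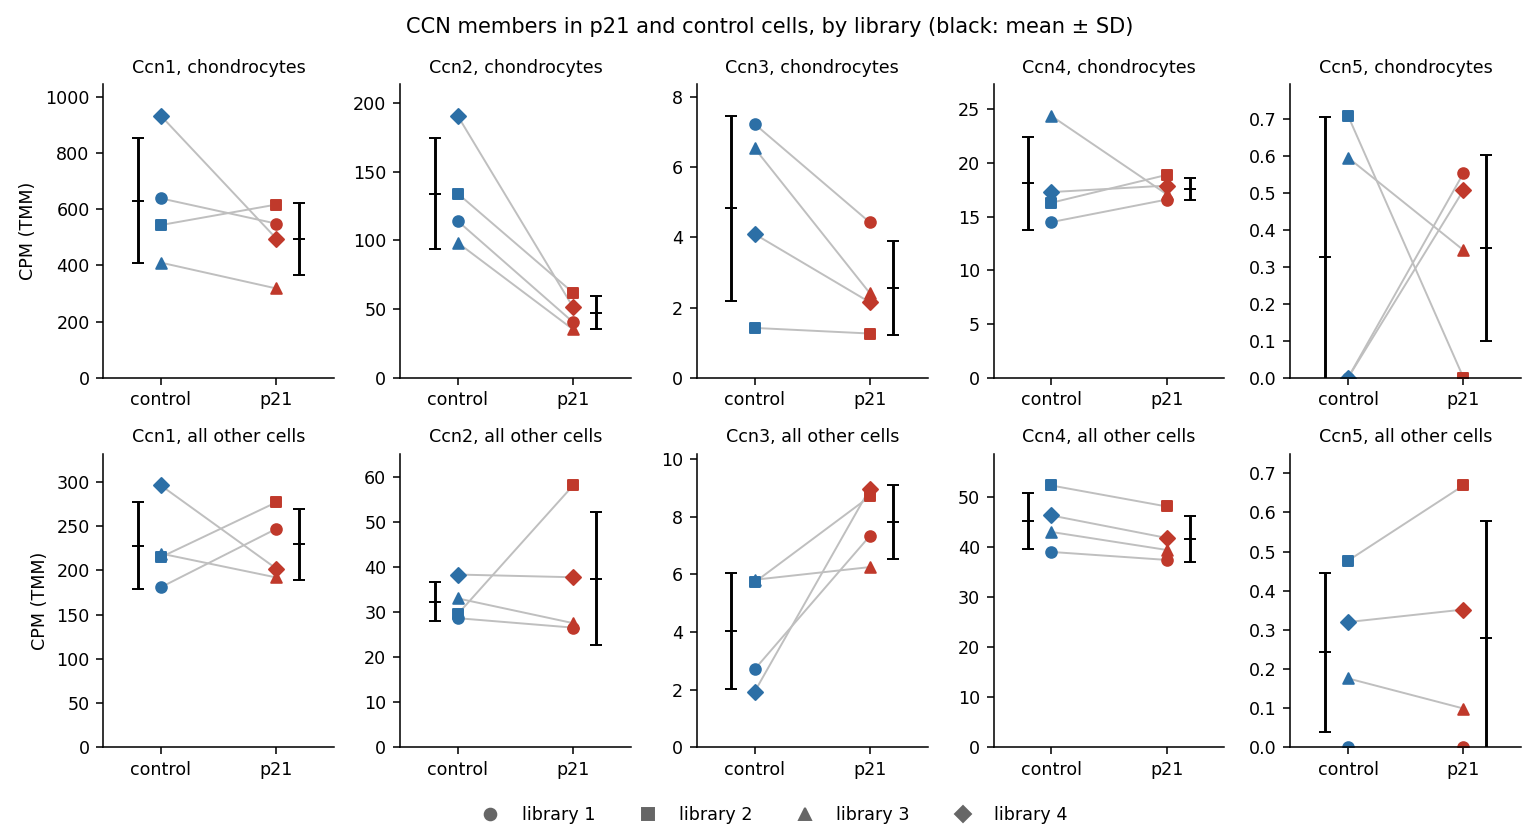
CPM (TMM-scaled) of the 5 members in control and p21 cells, chondrocytes above and all other cells below, with 1 symbol per library, grey lines joining the cells of a library and black bars for the mean ± SD (cut at 0). In chondrocytes all 4 Ccn2 values of p21 cells (35.1 to 61.8) sit under the control values (98.2 to 190.5), while those of Ccn1 and Ccn4 overlap.

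Other measures moved with condition in the same chondrocytes. The 23 immediate early and dissociation response genes, induced within minutes in stressed cells, summed to 12491, 13293, 9981 and 10331 CPM in p21 cells and 13688, 12477, 16270.1 and 15646 in control cells, lower in all libraries but library 2, as for Ccn1. The 8 proliferative chondrocyte markers summed to 2997 to 3793 in p21 and 3642 to 5348 in control cells, lower in each library, with every marker detected. The 8 resting markers were also lower in each library, 478 to 630.2 against 514 to 669. The 6 prehypertrophic markers went the other way in all libraries but library 4, at 887, 1116, 947 and 1081 against 619, 808, 753 and 1189. The 6 hypertrophic markers were lower in all libraries but library 1, 214 to 402 against 189 to 868. The 9 connective tissue fibroblast markers summed to 2172 to 2420.5 in p21 and 2559.6 to 3077 in control cells, with no overlap and every marker detected. The part of these differences in the Ccn2 result was not tested.

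In all other cells none of the 4 members over the count filter passed (edgeR; Ccn3 alone had an unadjusted p under 0.05, and DESeq2 and limma voom called 0 as well). There, 1 of 14134 genes passed (0.00708%), and 842 had an unadjusted p under 0.05. Ccn2 was at 26.6, 58.2, 27.6 and 37.8 CPM in p21 cells and 28.7, 29.6, 33.1 and 38.4 in control cells, and the value of 58.2 in library 2 was the single one above its control. Its log2 fold change was 0.08 (95% interval -0.29 to 0.46, adjusted p = 1). Ccn1 was at 229.5 ± 39.8 in p21 and 228 ± 48.8 in control cells (SD, n = 4 each; 0.01, 95% interval -0.30 to 0.32). Ccn4 was lower in p21 cells of all 4 libraries by small steps, 41.7 ± 4.66 against 45.3 ± 5.65, with overlapping ranges (-0.12, 95% interval -0.33 to 0.08, adjusted p = 0.954).

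Ccn3 had the largest estimate of these 4 members in the other cells, and the gap between its groups rested on 1 cell. It stood at 7.33, 8.70, 6.25 and 8.97 CPM in p21 cells and at 2.70, 5.72, 5.81 and 1.92 in control cells, with no overlap, as for 1.39% of all genes in that direction. Its log2 fold change was 0.92 (95% interval 0.18 to 1.65), which did not survive correction over all genes (adjusted p = 0.794), and the exact permutation test gave p = 0.0286, again the smallest possible over 70 assignments and with the same limit from the pools. Of the 15 permutation tests run (5 members in 3 sets of cells), this and that of Ccn2 in chondrocytes reached it. The p21 level came from few cells: 104 of 1211 p21 cells held 221 Ccn3 UMIs, 10 cells held 40.3% of them and 1 tenocyte-like cell of library 1 held 30 of the 43 in its sum. Without that cell, an alternative chosen after seeing the data, the p21 value of library 1 was 2.23, under its control value, the ranges overlapped, the log2 fold change was 0.58 (edgeR adjusted p = 0.959) and the exact permutation p was 0.229. Without the 5 unnamed clusters that scored as cartilage, but with the cell, the log2 fold change was 1.19 (edgeR adjusted p = 0.858). Tenocyte-like cells of either condition gave 44 UMIs in 9 cells. The 6 smooth muscle or pericyte markers, all detected, also summed higher in these p21 cells, 89.5 to 209.8 CPM against 61.5 to 99.5 in control cells. Acta2, 1 of these markers, was at 17.9, 75, 21.3 and 126 in p21 and 10.4, 3.34, 6.69 and 34.6 in control cells. It was also a leading gene of the muscle-like cluster, whose 52 cells held 0 Ccn3 UMIs. The part of the marker difference in the Ccn3 value was not tested.

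The difference between the classes was itself tested. The p21 effect on Ccn2 was lower in chondrocytes than in other cells by a log2 difference of -1.63 (95% interval -2.01 to -1.24, edgeR adjusted p = 0.00929), and Ccn2 was the 1 gene of 14369 that passed (0.00696%). This call depended on where the unnamed clusters that scored as cartilage were counted: with them left out of the other cells, chosen after seeing the data, the difference was -1.78 and no longer passed (edgeR adjusted p = 0.133). For Ccn3 the difference was -1.86 (95% interval -3.25 to -0.48, edgeR adjusted p = 0.517). It did not pass for Ccn1 (-0.36, 95% interval -0.75 to 0.04) or Ccn4 (0.11, 95% interval -0.32 to 0.54).

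In all cells together, 0 of 4 members passed and 4 of 14880 genes did (0.0269%). Ccn2 was at 40.6 ± 14.0 in p21 and 77.5 ± 34.3 in control cells, lower in each library with overlapping ranges, at a log2 fold change of -0.91 (95% interval -1.19 to -0.62, edgeR adjusted p = 0.0768). DESeq2 gave an adjusted p of 1.01e-06 for it and limma voom one of 0.0473. Ccn1 was at -0.29 (-0.65 to 0.06), Ccn3 at 0.52 (-0.01 to 1.06) and Ccn4 at -0.04 (-0.26 to 0.19). These values mix level with the makeup of the sample, in which chondrocytes, the cells with most Ccn1 and Ccn2, were 568 of 1779 p21 and 373 of 988 control cells.

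The fall of Ccn2 was then followed into single cell types. In proliferative chondrocyte-like cells Ccn2 stood at 43.0, 46.8, 30.2 and 38.9 in p21 and 109, 138, 120 and 135 in control cells, a tight pair of groups with no overlap, as for 2.98% of all genes in that direction. Its log2 fold change was -1.71 (95% interval -2.04 to -1.38, edgeR adjusted p = 0.000545), where 36 of 11225 genes passed (0.321%). In resting chondrocyte-like cells it stood at 14.1, 44.8, 49.6 and 34.1 against 142, 107, 58.8 and 124, also with no overlap, as for 2.02% of all genes, and with wider spread. The log2 fold change there, -1.52 (95% interval -2.18 to -0.86), did not pass by edgeR (adjusted p = 0.177, with 0 of 6698 genes passing, 0.0%, and 424 at an unadjusted p under 0.05) and passed by DESeq2 (adjusted p = 0.00504, 1 of 11 genes).

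Ccn1 and Ccn4 did not pass in either type. In proliferative chondrocyte-like cells Ccn1 was at 479 ± 114 in p21 and 628 ± 264 in control cells, lower in each library (-0.36, 95% interval -0.85 to 0.14), and Ccn4 at 12.0 ± 1.07 and 13.9 ± 6.62 (-0.10, 95% interval -0.78 to 0.57). In resting chondrocyte-like cells Ccn1 was at 485 ± 336 and 595 ± 214 (-0.38, 95% interval -1.13 to 0.38) and Ccn4 at 25.0 ± 2.74 and 25.0 ± 7.94 (0.12, 95% interval -0.55 to 0.78). Prehypertrophic chondrocyte-like cells reached 10 cells in 2 libraries per condition and were not tested, since only types with 10 cells in each of the 8 sums were. Ccn2 was there at 54.6 and 147 CPM in p21 cells against 222 and 437 in control cells, and Ccn1 at 349 and 475 against 644 and 1044, so the p21 values of both genes were the lower ones. As given above, this cluster may include endothelial cells.

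Osteoprogenitor-like cells of cluster 2, which also scored high for perichondrial markers (0.647 against 0.766 for the osteoprogenitor list), had Ccn2 on the other side. It stood at 34.3, 62.2, 49.1 and 45.1 in p21 cells and 21.6, 21.9, 31.5 and 32.0 in control cells, higher in 4 of 4 libraries with no overlap, as for 1.46% of all genes in that direction. The log2 fold change of 0.72 (95% interval 0.22 to 1.22, an interval without 0) did not survive correction over all genes (edgeR adjusted p = 1). None of 9898 genes passed there by edgeR (0.0%), 429 had an unadjusted p under 0.05, and DESeq2 called 1, which was no member. Ccn1 (-0.21, 95% interval -0.94 to 0.51) and Ccn4 (0.12, 95% interval -0.30 to 0.55) did not pass.

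**Figure D3:**
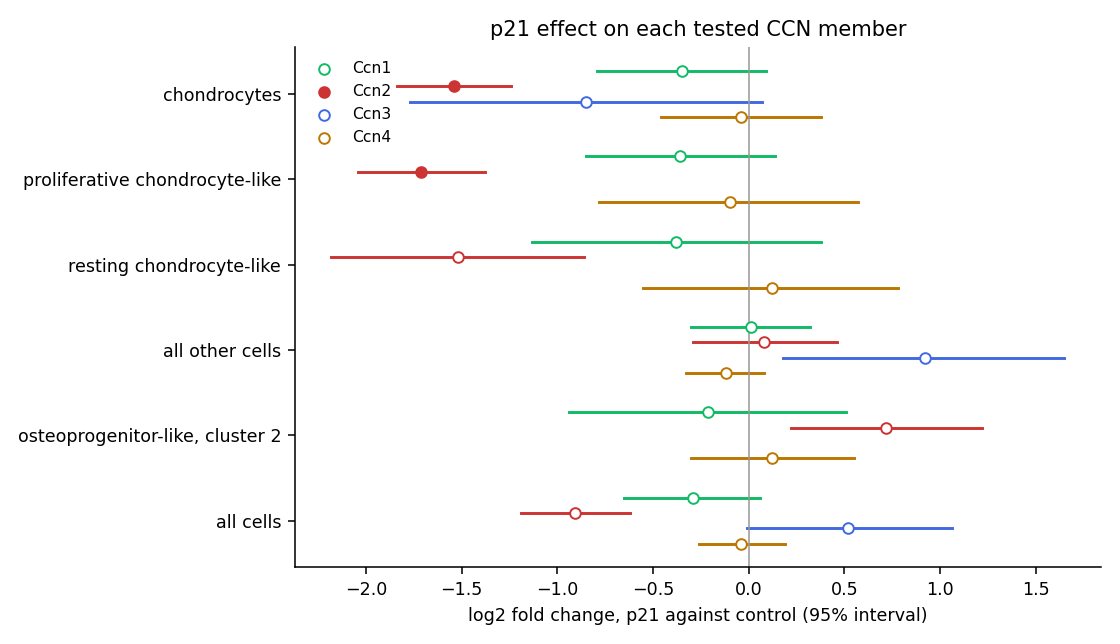
Log2 fold change of Ccn1 to Ccn4 in p21 against control cells (horizontal axis, bars for 95% intervals) in each set of cells tested, filled where edgeR's adjusted p was under 0.05. Ccn2 is filled in chondrocytes (-1.54) and in proliferative chondrocyte-like cells (-1.71) and lies at 0.08 in all other cells.

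**Figure D4:**
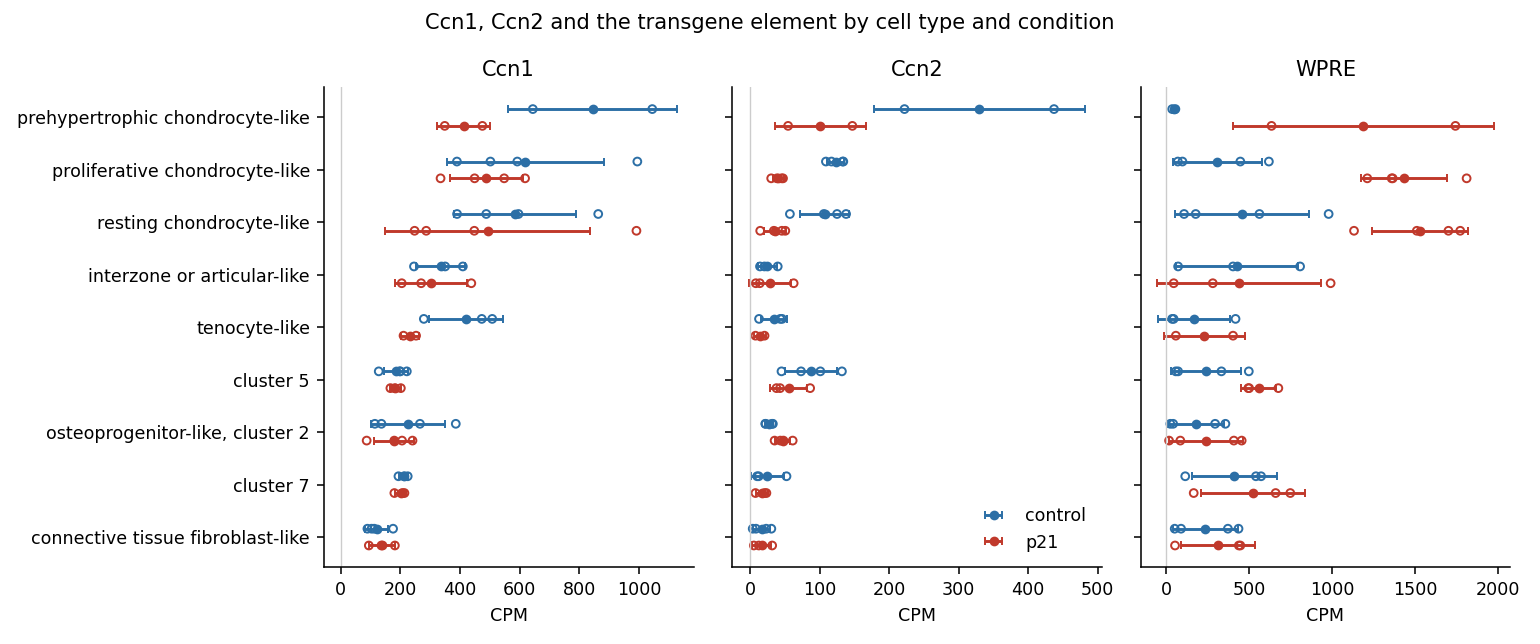
Ccn1, Ccn2 and the transgene element WPRE (CPM, horizontal axes) by cell type in control and p21 cells, with open circles for libraries of at least 10 cells and filled points with bars for the mean ± SD. Ccn2 of p21 cells lies under control in the chondrocyte-like types (40.4 against 123 in proliferative cells) and above it in osteoprogenitor-like cells of cluster 2 (47.0 against 27.1).

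The sorted fractions were compared next, with condition as a covariate, to ask whether cells of the Gli1 lineage differ in the members. Among chondrocytes 0 of 4 members passed, and 2 of 11975 genes did (0.0167%). Ccn2 was lower in tdT+ than in tdT- chondrocytes within each condition, at 40.4 and 35.1 against 61.8 and 51.3 in p21 cells and at 114 and 98.2 against 134 and 190.5 in control cells. Its log2 difference was -0.59 (95% interval -0.88 to -0.29, an interval without 0), which did not survive correction over all genes (edgeR adjusted p = 0.573, and 0.121 with the embryo pool as a block, where 26 genes passed). The p21 effect on Ccn2 did not pass a test of its difference between fractions (interaction 0.07, 95% interval -0.57 to 0.70). No gene of 12488 passed that test by edgeR or DESeq2, with 296 at an unadjusted p under 0.05 (edgeR).

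Ccn1 was at 479 ± 143 in tdT+ and 647 ± 197 in tdT- chondrocytes (-0.43, 95% interval -0.87 to 0.01, adjusted p = 1), and Ccn4 at 18.1 ± 4.32 and 17.6 ± 1.10 (0.05, 95% interval -0.37 to 0.46). Ccn3 went the other way, 5.16 ± 2.19 in tdT+ and 2.23 ± 1.31 in tdT- chondrocytes (0.97, 95% interval 0.05 to 1.89, edgeR adjusted p = 1). Among other cells 150 of 14134 genes passed (1.06%), or 286 with the pool as a block, and 0 of 4 members did. Ccn2 was at 29.0 ± 2.88 in tdT+ and 41.0 ± 12.2 in tdT- cells there (-0.46, 95% interval -0.84 to -0.09, adjusted p = 0.3), and Ccn4 at 39.8 ± 2.40 and 47.2 ± 4.38 (-0.23, 95% interval -0.44 to -0.02, adjusted p = 0.376). Ccn1 (-0.23) and Ccn3 (-0.14) had intervals that held 0.

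The pathways around the family were then counted in p21 against control chondrocytes, where the median log2 fold change of all genes was 0. Of 18 measured YAP and TAZ targets other than the members, 0 passed and the median was -0.04, with 9 above and 9 below 0. Ajuba, a cytoskeletal adaptor that restrains the Hippo pathway, had the lowest p of them (-0.76, SE 0.34, adjusted p = 0.458), followed by Fjx1 (0.47, SE 0.23, adjusted p = 0.502). Of 13 mechanosensing genes, which include Yap1 and the TEAD factors themselves, 0 passed with a median of 0.08. Piezo1, a stretch-gated ion channel, was at 40.9, 63.1, 62.4 and 61.2 in p21 and 26.2, 26.5, 40.5 and 43.4 in control chondrocytes (0.75, SE 0.196, adjusted p = 0.143), higher in each library with overlapping ranges, and Nf2, an upstream Hippo regulator, was at 0.42 (SE 0.225, adjusted p = 0.547).

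Of 12 targets of serum response factor and its partner MRTF, 0 passed, with a median of 0.02; the actin-binding Tpm1 (0.32, adjusted p = 0.407) and the LIM protein Fhl2 (0.44, adjusted p = 0.47) had the lowest p. Of 16 TGF beta pathway genes 0 passed, with a median of 0.01. Smad7, the inhibitory Smad that TGF beta itself induces, was at 309, 290, 281 and 264 in p21 and 167, 213, 215 and 218 in control chondrocytes. It was higher in each library with no overlap, as for 3.0% of all genes in that direction, and just missed the threshold (0.49, SE 0.105, adjusted p = 0.0656). Ltbp3, which holds latent TGF beta in the matrix, was at 0.45 (SE 0.127, adjusted p = 0.174). Unadjusted p-values under 0.05 (edgeR) numbered 1, 1, 1 and 2 in the YAP and TAZ, mechanosensing, serum response factor and TGF beta lists. Over all genes they numbered 1279 of 11975.

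Receptors and binding partners of CCN proteins had a median of 0.12 over 24 genes, 15 above and 9 below 0, with 0 past the threshold. An unadjusted p under 0.05 (edgeR) was found for 5 of them, against 1279 of 11975 over all genes. Notch1, a receptor reported to bind Ccn3, was at 34.3, 34.1, 42.4 and 37.9 in p21 and 27.3, 28.0, 26.8 and 23.2 in control chondrocytes, with no overlap, as for 3.0% of all genes in that direction (0.53, SE 0.137, adjusted p = 0.141). The integrin subunit Itgb5, which pairs with alpha v, was at 0.36 (SE 0.141, adjusted p = 0.38).

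The list in which genes passed was the immediate early and dissociation response list, with 2 of 23 lower, 0 higher and a median of -0.38. In that list 12 genes had an unadjusted p under 0.05 (edgeR), against 1279 of 11975 over all genes. Klf6, a zinc finger factor induced by growth and stress signals, was at 38.7, 31.5, 36.0 and 51.3 in p21 and 71.3, 80.3, 77.4 and 82.9 in control chondrocytes (-0.93, SE 0.14, edgeR adjusted p = 0.0207). Klf2, its shear-responsive relative, was at 592, 692, 603 and 600 against 791, 1040, 1070 and 866 (-0.60, SE 0.104, adjusted p = 0.0294). Neither had overlapping ranges, as for 3.59% of all genes in that direction. Both were also lower in proliferative chondrocyte-like cells, where Hspa1a, a heat shock chaperone, fell too (-2.96, SE 0.468, adjusted p = 0.0269). In all other cells 0 genes of any list passed between p21 and control by edgeR, with 0 to 2 genes per list at an unadjusted p under 0.05 and list medians between -0.05 and 0.11.

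**Figure D5:**
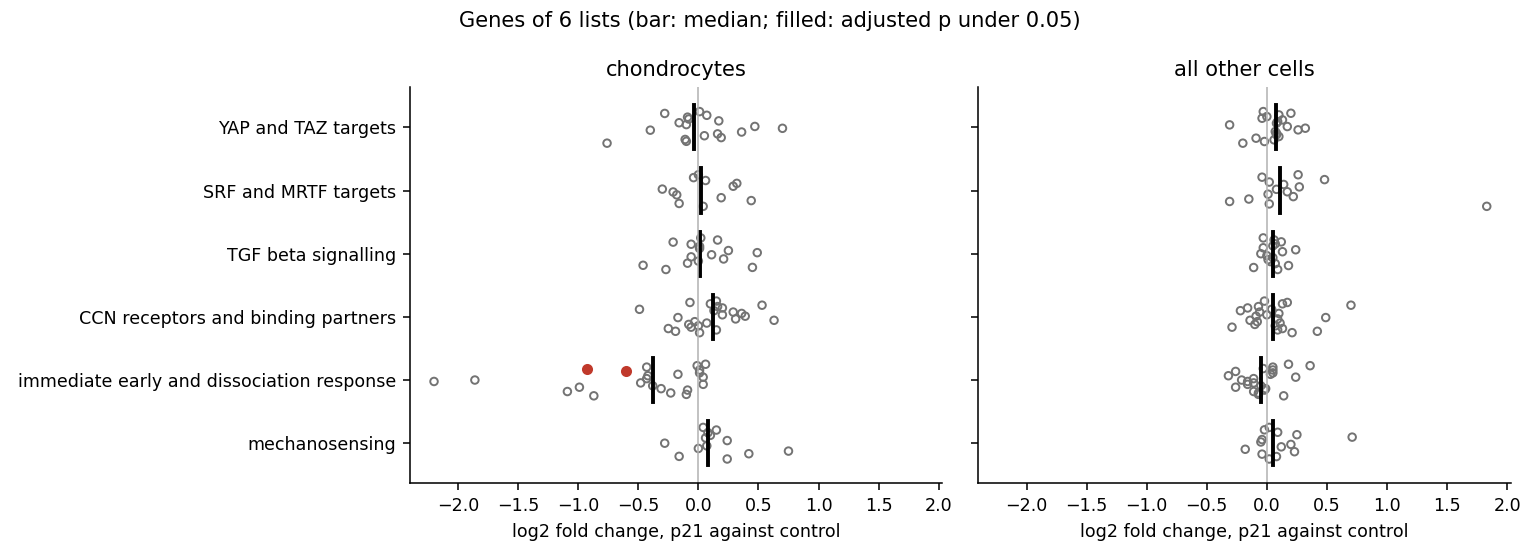
Log2 fold change in p21 against control cells (horizontal axes) of each gene in the 6 lists, in chondrocytes and in all other cells, with black bars for list medians and filled red points for an adjusted p under 0.05. The 2 filled points are Klf6 (-0.93) and Klf2 (-0.60) in chondrocytes, in the list whose median was -0.38.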

How the data were processed

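The authors aligned 10x 3′ reads with Cell Ranger (version 7.2.0 in the submitters' processing notes) to GRCm38 with added transgene sequences. The files they deposited hold raw UMI counts, one value for each gene in each barcode. A barcode was kept with 1000 or more UMIs, 500 or more genes and a mitochondrial share of 10% or less. Sex, and through the study's multiplexing condition, was called from at least 2 UMIs of Xist or of Ddx3y, Eif2s3y, Kdm5d and Uty, 80% of them on 1 side. Cells with 2 UMIs of both sides, and the top 5% of Scrublet scores per library among cells of 3000 UMIs or more, were removed as doublets. Cells were clustered in scanpy 1.11.5 with leidenalg 0.10.2 and igraph 0.11.9 (2000 variable genes without the members, 30 components, 15 neighbours, resolution 1). Clusters were named from marker lists (score of at least 0.4 and 3 markers), a limit set after the clusters were seen, so rebuilt names may differ from the study's. Other tools were scikit-learn 1.9.0, pandas 2.3.3, scipy 1.17.1 and numpy 2.4.6 in Python 3.11.15.

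Counts were summed per library and condition and tested in R 4.3.3 with edgeR 4.0.16 (filterByExpr, TMM, glmQLFit, glmQLFTest, Benjamini-Hochberg over all genes, sorted fraction as covariate), with DESeq2 1.42.0 and limma 3.58.1 voom as alternatives, after a check on simulated counts. Differences of fractions took condition as covariate, and the class difference took each library and condition as block. Two-sided exact permutation tests used 70 assignments. Levels by type used libraries with at least 10 cells. Named genes were the members, the transgene checks, list genes past the threshold or otherwise the pair with the lowest p, and the 5 genes nearest each member across types. The members, lists and tests were chosen with earlier results of these data known.

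Deviations from group means correlated between the p21 and control cells of a library at r = -0.0182, -0.0181, -0.0498 and 0.0688 across 11975 genes, so the library did not pair them, and between the tdT+ and tdT- cells of an embryo pool, which share embryos, at r = 0.276, 0.117, 0.172 and 0.39.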

Additional observations from a re-analysis of the deposited data

Results flagged for a closer look

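The p21 effect on Ccn2 differed between chondrocytes and all other cells by -1.63 on the log2 scale in a direct test of the difference, and by -1.78 (edgeR adjusted p = 0.133) with 5 unnamed clusters that scored as cartilage left out of the other cells. In all cells together, Ccn4 in p21 cells of library 2 stood apart from the other p21 libraries at 38.0 CPM (the others 31.3 to 32.2), and Ccn4 in control cells of library 3 stood apart at 38.4 (the others 31.6 to 32.5). Of 30 groups of 4 examined, 2 had such a library, and chance alone gives about 1 in 20. Barcodes under 1000 UMIs, which enter no comparison, held 261 CPM of Ccn1, 40.7 of Ccn2, 4.35 of Ccn3 and 18.6 of Ccn4, all above the limit of 0.372 that a count of 0 allows.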

How the results depend on the processing

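In chondrocytes the fall of Ccn2 passed in all 23 settings run, the reported one included (log2 fold change -1.67 to -1.26, adjusted p from 5.96e-25 to 0.0393), the weakest being the sum of both fractions of a pool (2 against 2), where 3 genes passed. Leaving out each library sum in turn left 1 member past the threshold in chondrocytes and 0 in other cells, in all cells and in both fraction comparisons, while the genes passing in chondrocytes ran from 3 to 58. With no filter on low counts the members past the threshold numbered 2 in chondrocytes (Ccn1 joined, adjusted p = 0.0348), 2 in all cells, 1 in resting chondrocyte-like cells, 2 between fractions in chondrocytes (Ccn1 and Ccn2), 1 between fractions in other cells (Ccn2) and 2 in the class difference (Ccn3 joined, adjusted p = 0.0292). The genes passing overall rose with it from 75 to 455 in chondrocytes and from 1 to 296 in other cells, and the cause was not tested. In all cells 1 member (Ccn2) passed by DESeq2, by limma voom and with no Scrublet filter, and in resting chondrocyte-like cells 1 by DESeq2. In the class difference 0 members passed without the unnamed clusters that scored as cartilage in the other cells. By DESeq2 145 genes passed in chondrocytes, 8 in other cells and 51 in all cells.

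Signs changed only for values that were near 0 in the reported setting and passed no test. Ccn4 in chondrocytes was 0.10 at a clustering resolution of 0.5 and with stricter sex calls, and -0.15 to 0.15 without single sums. In other cells Ccn1 was -0.01 by voom, -0.31 at resolution 0.5, -0.02 without 5 clusters held by 1 library (178 cells), -0.07 without the 5 that scored as cartilage (both chosen after seeing the data) and -0.10 to 0.14 without single sums (-0.10, -0.07, -0.06 and -0.05 where negative), and Ccn2 was -0.36 at resolution 0.5 and -0.06 to 0.20 without single sums (-0.06 without p21 cells and -0.03 without control cells of library 2). At resolution 0.5 the other cells held an unnamed cluster of 231 cells with a proliferative chondrocyte score of 0.396. Its leading genes included Coro1a, Laptm5, Matn1 and Chad, and its part in these values was not tested. Ccn4 in all cells was -0.09 to 0.05 (0.01 and 0.05 without p21 or control cells of library 3), and between fractions in chondrocytes -0.14 to 0.14. By the mean over cells, 3 of 5 members kept their highest type, with Ccn1 then highest in resting chondrocyte-like and Ccn5 in tenocyte-like cells.

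With the library as a replicate block Ccn2 in chondrocytes was -1.54 (adjusted p = 0.00452; 51 genes passed, and 12 against 36 in proliferative chondrocyte-like cells). Neither this pairing nor the block by embryo pool changed a call on a member.

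Depth limited Ccn3 (367 UMIs), whose intervals were the widest, and Ccn5 (19 UMIs), which was under the filter of each reported fit.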

Other observations

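Ccn6, the family's remaining member, was also measured, at 296 UMIs. Its highest mean was in prehypertrophic chondrocyte-like cells, 50.3 ± 71.0 CPM (n = 3 libraries), where the libraries were at 132, 2.24 and 16.8 and 66 UMIs came from 17 of 93 cells. Proliferative chondrocyte-like cells followed at 6.04 ± 2.65 (n = 4). Between p21 and control cells it stood at 7.38 ± 0.348 and 8.58 ± 3.90 in chondrocytes (log2 fold change -0.22, 95% interval -0.86 to 0.43) and at 2.45 ± 1.21 and 1.33 ± 0.679 in other cells, higher in p21 cells of 4 of 4 libraries with overlapping ranges (0.96, 95% interval -0.05 to 1.98, edgeR adjusted p = 0.859).

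In tenocyte-like cells, with at least 10 cells in 2 p21 and 3 control libraries and no test, Ccn1 was at 232 ± 29.4 and 419.8 ± 123 CPM and Ccn2 at 14.2 ± 9.24 and 34.0 ± 18.5. Ccn4, highest in these cells, was at 67.6 ± 13.0 and 77.2 ± 11.6. In connective tissue fibroblast-like cells (3 p21 and 4 control libraries), where Ccn3 was highest, Ccn3 was at 9.64 ± 4.88 and 5.48 ± 4.07, from 70 and 15 UMIs, and the ranges overlapped.

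WPRE in all other cells was at 353 ± 264 in p21 and 242 ± 211 in control cells, higher in p21 cells of 4 of 4 libraries (log2 fold change 0.76, 95% interval 0.30 to 1.21, edgeR adjusted p = 0.743).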
